A study of Rattus norvegicus with 4 samples.

Results

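The RNA levels of 8 genes of the ErbB system were followed through the RNA-seq libraries of neonatal rat cardiomyocytes that had received mimics of the miR-106b-25 cluster, whose members are miR-25, miR-93 and miR-106b. The libraries were made to compare the transcriptome under each of these miRNAs with that under a control mimic. The 8 genes were chosen by name and comprise the receptor genes Egfr, Erbb2, Erbb3 and Erbb4, the ligand genes Nrg1, Hbegf and Ereg, and the feedback inhibitor gene Errfi1. Each of the 8 was listed once by its symbol among the 15731 genes of the deposited table. The cells were ventricular cardiomyocytes of rats, depleted of other cells by a short preplating step and grown in medium with serum. A day after seeding they received hsa-miR-25-3p, hsa-miR-93-5p or hsa-miR-106b-5p mimic, or the control mimic cel-miR-67, named for a miRNA of the worm C. elegans, and total RNA was collected 72 h later. The labels give the age of the rats as 1 day and in one place as day 0, and the mimic dose as 25 nM in one protocol and 25 mM in another. No gene was deleted or otherwise altered in any group, and the transfection reagent, Lipofectamine RNAiMAX, was common to all 4 cultures. Each mimic was represented by 1 library, so that no difference between mimics could be set against a spread between cultures.

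ErbB proteins are receptor tyrosine kinases that signal as pairs. EGFR and ErbB4 bind ligands and have an active kinase, ErbB2 has no known ligand and serves as the preferred partner of the others, and ErbB3 binds neuregulins but has a weak kinase. Ligands are made as membrane-bound precursors that metalloproteases of the ADAM family release. In the heart, neuregulin-1 from endothelial cells acts on ErbB4 and ErbB2 of cardiomyocytes, a pathway required for trabeculation and known for its part in the growth and survival of young cardiomyocytes. HB-EGF, the product of Hbegf, binds EGFR and ErbB4 and is needed for normal heart valves and cardiac function.

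The mature sequences of the 3 miRNAs are shown because the mimics are grouped by their seed, the stretch from base 2 to base 8 that pairs with target mRNAs. They were taken from RefSeq for the rat, written from 5′ to 3′ with the seed in capitals.
rno-miR-106b-5p: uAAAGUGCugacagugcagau
rno-miR-93-5p: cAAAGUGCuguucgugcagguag
rno-miR-25-3p: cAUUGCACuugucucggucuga
The rat miRNAs miR-106b-5p and miR-93-5p carry the same seed, and miR-25-3p carries another. In the GRCr8 assembly the mature miRNAs lie on the minus strand of chromosome 12, miR-106b-5p at chr12:22157103-22157123, miR-93-5p at chr12:22156894-22156916 and miR-25-3p at chr12:22156652-22156673, within 472 bases of each other. An mRNA site that pairs with the whole seed reads GCACUUU for the first seed and GUGCAAU for the other. Sites in the 3′UTRs of the 8 genes were not analysed here.

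Levels are given as deposited, in RPKM, the reads of a gene scaled to its length in kilobases and to the size of the library in units of 1000000 reads, together with the whole number of reads that each value stands for, which was recovered from the step that a single read adds. The libraries held between 15175185 and 18797234 reads on listed genes, 60.4% to 66.9% of the library sizes behind the RPKM values, which were 22.7 to 29.7 in the same unit. The methods of the study state fewer reads per sample than these sizes recovered from the values, and the read numbers and intervals given here rest on the recovered sizes. A ratio is the RPKM of a mimic library over that of the cel-miR-67 library, on the log2 scale without a pseudocount, and its 95% interval is the exact Clopper-Pearson interval of the reads. These intervals cover counting error alone and not the variation between cultures. A gene was counted as higher or lower when its RPKM was above 1.0 in both libraries and its ratio was past 1.3-fold, 0.38 on the log2 scale. All comparisons with cel-miR-67 share the single control library, so that a deviation of that library would enter all 3.

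Hbegf was lower than control with every mimic, by 1.90-fold after miR-106b, 5.66-fold after miR-93 and 2.54-fold after miR-25. Ereg was also lower with each mimic, by 1.96-fold to 2.62-fold, at levels close to the RPKM cutoff. Nrg1 was higher after miR-106b and miR-93, the 2 mimics with a common seed, and was at the control level after miR-25. Among receptors Erbb2 was higher after miR-93 by 1.36-fold, and at 1.28-fold after miR-106b it was just short of the cutoff. Errfi1 was higher after miR-25 by 1.65-fold.

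**Figure D1:**
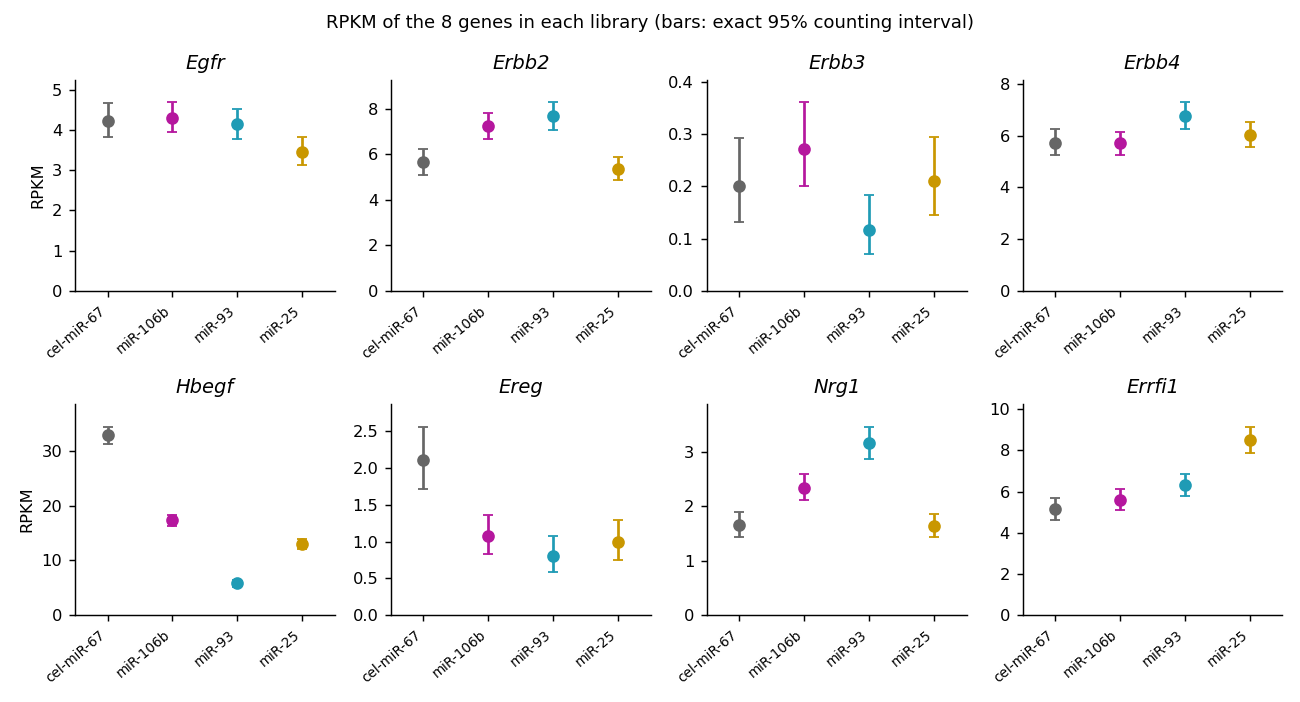
RPKM of each of the 8 genes (vertical axis, from 0 and scaled to each gene) in the 4 libraries (horizontal axis), where a point is the deposited value and its bar the exact 95% counting interval from the recovered reads. Hbegf spans 5.80 to 32.8 RPKM, whereas Egfr stays between 3.45 and 4.30 RPKM and Erbb3 between 0.117 and 0.272 RPKM.

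In the control library Hbegf was the most abundant of the 8 genes, at 32.8 RPKM, above 89.5% of listed genes. Hbegf was at 17.3 RPKM after miR-106b, 5.80 RPKM after miR-93 and 12.9 RPKM after miR-25, from 1715 reads in control and 1187, 365 and 813 reads in the mimic libraries. The counting intervals of the 4 libraries did not overlap, with control highest and miR-93 lowest. The log2 ratio over control was -0.92 (95% interval -1.03 to -0.82) after miR-106b. With miR-93 the log2 ratio of Hbegf was -2.50 (-2.67 to -2.34), the 18th lowest of the 11280 genes above the cutoff. With miR-25 it was -1.34 (-1.46 to -1.22), and 2.33% of the 11198 genes above the cutoff were lower. In bulk cultures such as these, fewer cells of a type that makes Hbegf and less Hbegf RNA per cell cannot be told apart.

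Ereg encodes epiregulin, a ligand of EGFR and ErbB4. Its level was 2.10 RPKM in control, 1.07 RPKM after miR-106b, 0.803 RPKM after miR-93 and 0.997 RPKM after miR-25, from 100, 67, 46 and 57 reads. Control stood above the others, and the counting intervals of the 3 mimic libraries overlapped each other. The log2 ratio over control was -0.97 (-1.44 to -0.51) after miR-106b, which counted as lower. With miR-93 it was -1.39 (-1.93 to -0.87) and after miR-25 -1.08 (-1.57 to -0.59), but there its RPKM in the mimic library was under the cutoff of 1.0 and Ereg entered no count.

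Nrg1 encodes neuregulin-1, a ligand of ErbB3 and ErbB4. It was at 1.65 RPKM in control, 2.34 RPKM after miR-106b, 3.15 RPKM after miR-93 and 1.63 RPKM after miR-25, from 198, 368, 456 and 235 reads. The miR-93 library was highest, the miR-106b library came next, and the other two were alike within counting error. The log2 ratio of Nrg1 over control was 0.50 (0.25 to 0.76) after miR-106b, 0.93 (0.69 to 1.18) after miR-93 and -0.02 (-0.30 to 0.26) after miR-25. The count of Nrg1 as higher after miR-106b depended on the settings, since with 1 RPKM added to both values its log2 ratio was 0.33, under the cutoff. With miR-93, 2.12% of the 11280 genes above the cutoff had a higher ratio than Nrg1.

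The ErbB ligands outside the 8 genes were Areg, Btc, Egf, Tgfa and Nrg4, which were listed, whereas Epgn, Nrg2 and Nrg3 were not analysed here. Areg, the gene of the EGFR ligand amphiregulin, was at 3.06 RPKM in control, 1.74 RPKM after miR-106b, 0.482 RPKM after miR-93 and 0.772 RPKM after miR-25, from 79, 59, 15 and 24 reads. Its log2 ratio was -0.81 (-1.32 to -0.31) after miR-106b, -2.67 (-3.57 to -1.86) after miR-93 and -1.98 (-2.71 to -1.31) after miR-25, with an RPKM under the cutoff in the miR-93 and miR-25 libraries. It was the single gene of these 5 above the cutoff in any comparison, and counted as lower after miR-106b. Btc, Egf, Tgfa and Nrg4 stayed under 1.0 RPKM in all 4 libraries, with Tgfa highest among them at 0.512 to 0.724 RPKM.

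The balance between ligands differed accordingly. The summed level of Hbegf, Ereg and Nrg1 was 36.6 RPKM in control, 20.7 after miR-106b, 9.75 after miR-93 and 15.6 after miR-25. Of these sums Nrg1 made up 4.51% in control, 11.3% after miR-106b, 32.3% after miR-93 and 10.5% after miR-25. The ratio of Hbegf to Nrg1 RPKM was 19.9 (17.2 to 23.2) in control, 7.41 (6.58 to 8.35) after miR-106b, 1.84 (1.60 to 2.11) after miR-93 and 7.94 (6.86 to 9.22) after miR-25. Being formed within a library, this ratio does not depend on how libraries are scaled to each other. Over all 8 ligand genes listed, the neuregulins Nrg1 and Nrg4 held 4.33% of the summed RPKM in control and 28.9% after miR-93.

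**Figure D2:**
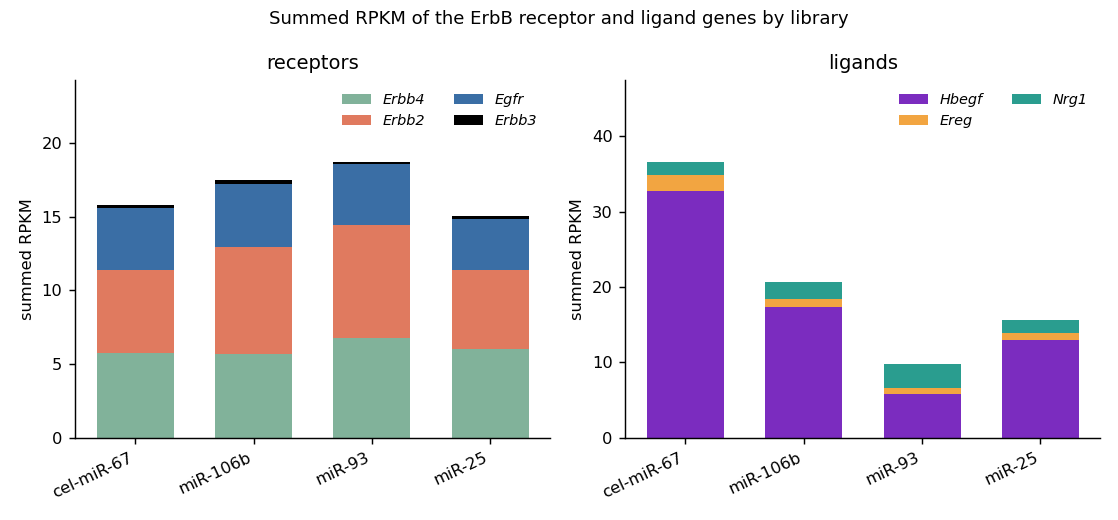
Summed RPKM (vertical axes, from 0) of the 4 receptor genes on the left and of Hbegf, Ereg and Nrg1 on the right, stacked by gene for each library (horizontal axes). The receptor sums lie between 15.0 and 18.7 RPKM, while the ligand sums go from 36.6 RPKM in control to 9.75 RPKM after miR-93.

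The summed level of the receptors lay closer to control than that of the ligands. Over the 4 receptor genes it was 15.8 RPKM in control, 17.5 after miR-106b, 18.7 after miR-93 and 15.0 after miR-25. Erbb4 and Erbb2 were the most abundant receptor genes in each library, followed by Egfr, and Erbb3 held 0.628% to 1.55% of the sum.

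Egfr, the receptor of HB-EGF, amphiregulin and epiregulin, was at 4.22 RPKM in control, 4.30 after miR-106b, 4.14 after miR-93 and 3.45 after miR-25, from 398, 532, 470 and 391 reads. The miR-25 library was the lowest of the 4. The log2 ratio of Egfr was 0.03 (-0.16 to 0.22) after miR-106b, -0.03 (-0.22 to 0.17) after miR-93 and -0.29 (-0.50 to -0.09) after miR-25, and none was past 1.3-fold.

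Erbb2, the receptor that acts as a partner, was at 5.65 RPKM in control, 7.22 after miR-106b, 7.66 after miR-93 and 5.35 after miR-25, from 391, 656, 639 and 445 reads. The libraries of the mimics with a common seed were above the other two, without overlap of the counting intervals. The log2 ratio of Erbb2 was 0.44 (0.26 to 0.63) after miR-93, past the cutoff, and 0.35 (0.17 to 0.54) after miR-106b, a 1.28-fold difference just short of it. With miR-25 it was -0.08 (-0.28 to 0.12).

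Erbb4, the neuregulin receptor of cardiomyocytes, was at 5.73 RPKM in control, 5.69 after miR-106b, 6.76 after miR-93 and 6.01 after miR-25, from 493, 643, 701 and 622 reads. Only its interval after miR-93, at a log2 ratio of 0.24 (0.07 to 0.41), left out 0, and this ratio was not past the cutoff. With miR-106b the log2 ratio was -0.01 (-0.18 to 0.16) and after miR-25 0.07 (-0.10 to 0.24).

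Erbb3 was at 0.201 RPKM in control, 0.272 after miR-106b, 0.117 after miR-93 and 0.210 after miR-25, from 27, 48, 19 and 34 reads. All 3 intervals of its ratio to control included 0, the widest from -1.70 to 0.12 after miR-93, so that no difference from control was detectable at this depth. With an RPKM under 1.0 in every library Erbb3 entered none of the counts at that cutoff.

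Errfi1 encodes an inhibitor, also known as Mig6, that binds the kinase of active ErbB receptors and is itself induced by their signalling. Its level was 5.14 RPKM in control, 5.61 after miR-106b, 6.30 after miR-93 and 8.48 after miR-25, from 347, 497, 513 and 689 reads. The miR-25 library stood above the other 3, whose values lay within 1.23-fold of control. The log2 ratio of Errfi1 was 0.13 (-0.07 to 0.33) after miR-106b, 0.30 (0.10 to 0.50) after miR-93 and 0.72 (0.54 to 0.91) after miR-25. The RPKM ratio of Errfi1 to Egfr was 1.22 (1.05 to 1.41) in control, 1.3 (1.15 to 1.48) after miR-106b, 1.52 (1.34 to 1.73) after miR-93 and 2.46 (2.17 to 2.79) after miR-25.

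**Figure D3:**
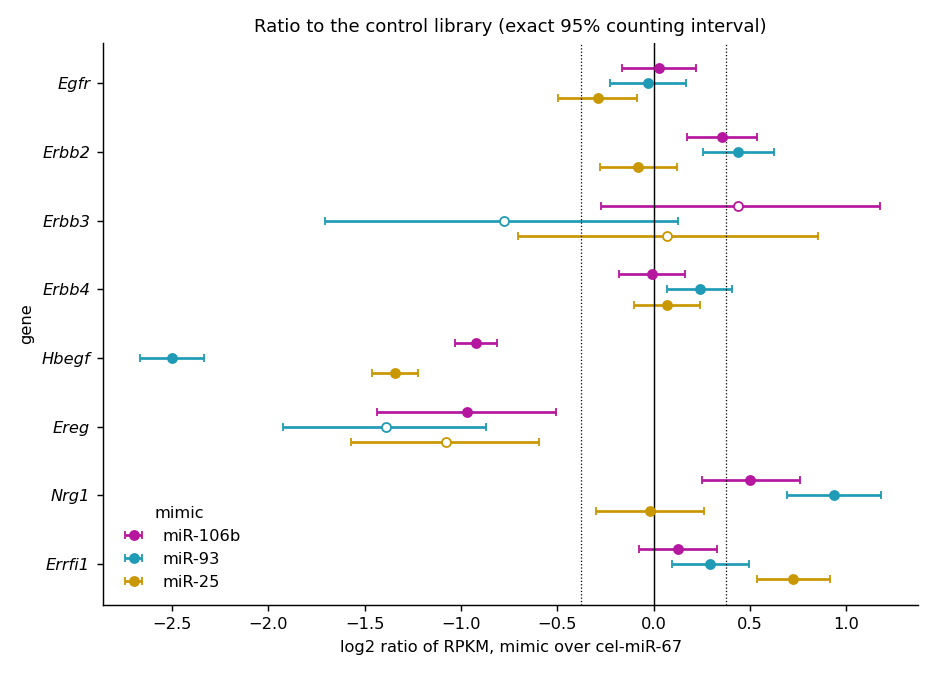
Log2 ratio of RPKM of each mimic over cel-miR-67 (horizontal axis) for the 8 genes (vertical axis), with exact 95% counting intervals, open points where RPKM was not above 1.0 in both libraries, and dotted lines at 1.3-fold in either direction. The intervals of Hbegf and Ereg lie below the lower line for all 3 mimics. The miR-93 interval of Nrg1 and the miR-25 interval of Errfi1 lie above the upper line.

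Counts of the members were read against those of all genes. With miR-106b, 7 members were above the RPKM cutoff, of which Nrg1 was higher and Hbegf and Ereg were lower, and over all 11296 genes above the cutoff 11.9% were higher and 12.7% lower. With miR-93, 6 members were above it, of which Erbb2 and Nrg1 were higher and Hbegf was lower, against 15.1% higher and 15.6% lower of all genes. With miR-25, 6 members were above it, Errfi1 being higher and Hbegf lower, against 19.3% higher and 22.6% lower. As shares of members above the cutoff, these counts were 14.3% higher and 28.6% lower after miR-106b, 33.3% and 16.7% after miR-93, and 16.7% in each direction after miR-25. A single gene makes up 14.3% or 16.7% of so few, and each count lay within 2 genes of what the share of all genes would give, so the counts are no result about the 8 genes as a group. The split of all called genes depends on scaling. Of genes past 1.3-fold, 48.2%, 49.2% and 46.1% were higher for miR-106b, for miR-93 and for miR-25, and 64.7%, 72.3% and 64.8% when RPKM was rescaled to the reads on listed genes, which moves the median of all genes up by 0.08, 0.15 and 0.15 on the log2 scale. Under that scaling Erbb2 after miR-106b and Erbb4 and Errfi1 after miR-93 would also count as higher. Erbb3 was left out in all 3 comparisons and Ereg in those after miR-93 and miR-25. The median log2 ratio of the members above the cutoff was 0.03 after miR-106b, 0.27 after miR-93 and -0.05 after miR-25.

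The order of levels per gene length differed between libraries. In control the order was Hbegf, Erbb4, Erbb2, Errfi1, Egfr, Ereg, Nrg1 and Erbb3. Within it Erbb4 and Erbb2, Erbb2 and Errfi1, and Ereg and Nrg1 did not differ beyond counting error. With miR-93 Hbegf came after Erbb2, Erbb4 and Errfi1, at a level not distinguishable from that of Errfi1 (ratio of Errfi1 to Hbegf 1.09, interval 0.95 to 1.25). With miR-25 Errfi1 came directly after Hbegf and was 1.41-fold above Erbb4 (1.26 to 1.58). Nrg1 stood above Ereg in each mimic library, by 2.18-fold after miR-106b, 3.93-fold after miR-93 and 1.63-fold after miR-25.

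Ratios between mimic libraries do not use the control. Between miR-93 and miR-106b, which share their seed, Hbegf was 2.99-fold lower after miR-93, a log2 ratio of -1.58 (-1.75 to -1.41). Nrg1 was 1.35-fold higher after miR-93 than after miR-106b, at 0.43 (0.23 to 0.63). Erbb4 also had an interval that left out 0, at 0.25 (0.09 to 0.40), as did the sparse Erbb3 at -1.21 (-2.06 to -0.42). For Egfr, Erbb2, Ereg and Errfi1 the interval of this ratio included 0, and for Erbb2 it ran from -0.07 to 0.24.

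The miR-25 library differed from both others in Erbb2, Nrg1, Egfr and Errfi1. Erbb2 was lower after miR-25 than after miR-106b by 1.35-fold and than after miR-93 by 1.43-fold. Nrg1 was lower by 1.43-fold and 1.94-fold in the same order. Egfr was lower by 1.25-fold and 1.20-fold. Errfi1 was higher, by 1.51-fold over miR-106b (log2 ratio 0.60, 0.43 to 0.77) and 1.35-fold over miR-93 (0.43, 0.26 to 0.60). Hbegf after miR-25 lay between the others, 1.34-fold below miR-106b and 2.23-fold above miR-93.

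Genes that act around the receptors were described as lists, and their counts are set beside the shares of all genes above the cutoff that were higher or lower, 11.9% and 12.7% after miR-106b, 15.1% and 15.6% after miR-93, and 19.3% and 22.6% after miR-25. Over all genes above the cutoff the median log2 ratio was -0.003 after miR-106b, -0.002 after miR-93 and -0.01 after miR-25. The list of ligand shedding and processing held 9 genes above the cutoff, so that a single gene is over 10% of it. None was higher and 3 were lower after miR-106b, none and 2 after miR-93, and 2 and 3 after miR-25, with median log2 ratios of -0.31, -0.17 and 0.25. Adam10, which encodes a sheddase of several ErbB ligands, was at 32.1 RPKM in control, 24.3 after miR-106b, 30.2 after miR-93 and 7.99 after miR-25, and its log2 ratio after miR-25 was -2.01 (-2.12 to -1.89). Adam9, a further metalloprotease gene, was at 20.0 RPKM in control and had log2 ratios of -0.78 and -0.97 after miR-106b and miR-93 but 0.61 after miR-25. Adam17, the main sheddase of HB-EGF and chosen for mention after its values were seen, was at 11.7 to 12.8 RPKM in all 4 libraries.

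Among 19 genes of receptor turnover and inhibition, 2 were higher and 2 lower after miR-106b, 2 and 1 after miR-93, and 2 and 2 after miR-25, with medians of -0.03, -0.01 and 0.03. With each mimic both counts were thus under the shares of all genes, which were 19.3% higher and 22.6% lower after miR-25. Sh3kbp1, the gene of the adaptor CIN85 that takes part in the endocytosis of EGFR, was at 28.5 RPKM in control, 70.4 after miR-106b, 76.8 after miR-93 and 13.2 after miR-25. It was thus above control with both mimics of the common seed (log2 ratio 1.31 and 1.43) and below it after miR-25 (-1.11, -1.21 to -1.02). Socs4, which encodes a suppressor of cytokine signalling that also acts on EGFR, was at 8.32 RPKM in control and 14.9 RPKM after miR-25, a log2 ratio of 0.84 (0.66 to 1.02).

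The list of adaptors and Ras-MAPK relay had 2 of 20 genes higher and none lower after miR-106b, 3 higher and 1 lower of 21 after miR-93, and 8 higher and none lower of 21 after miR-25. The last of these stands beside 19.3% higher and 22.6% lower of all genes. The median log2 ratio of the list was 0.01, 0.05 and 0.28 in the same order. Ksr1, the gene of a scaffold for Raf, MEK and ERK, was at 1.76 RPKM in control and 3.94 RPKM after miR-25, a log2 ratio of 1.17 (0.91 to 1.43). Genes of this list that were also higher after miR-25 included Shc1, Shc2, Sos1, Map2k1 and Rps6ka1, named after their values were seen, at log2 ratios of 0.46 to 0.71.

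For the PI3K-Akt relay, 3 of 23 genes were higher and 3 lower after miR-106b, 2 and 6 after miR-93, and 4 and 4 after miR-25, with medians of -0.07, -0.03 and -0.07. The 6 of 23 lower after miR-93 stand beside 15.6% of all genes, and the 4 in each direction after miR-25 beside 19.3% higher and 22.6% lower. Pik3cd, which encodes a catalytic subunit of PI3-kinase, was at 1.5 RPKM in control and 3.97 RPKM after miR-25 (log2 ratio 1.40, 1.15 to 1.67). Rps6kb1, the gene of the S6 kinase, was at 21.7 RPKM in control and 10.6 RPKM after miR-25 (-1.03, -1.17 to -0.89). Neither was past 1.3-fold with the other mimics.

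Genes of ERK feedback and genes induced by ERK are often read as a record of signalling through this pathway. Of 17, 3 were higher and 2 lower after miR-106b, 5 and 2 after miR-93, and 4 and 6 after miR-25, the last beside 19.3% higher and 22.6% lower of all genes. Dusp5 and Dusp4, which encode phosphatases of ERK, differed in direction after miR-25: Dusp5 went from 2.28 RPKM in control to 5.32 RPKM (log2 ratio 1.22, 0.93 to 1.53) and Dusp4 from 14.6 to 6.64 RPKM (-1.14, -1.27 to -1.01). Past 1.3-fold, Dusp5 was also higher after miR-93 (0.47) and Dusp4 was higher after miR-106b (0.46). Etv1, a transcription factor gene, was lower after miR-106b, at 2.12 RPKM against 5.30 RPKM in control (-1.32, -1.56 to -1.09). Its log2 ratios after miR-93, with the same seed, and after miR-25 were -0.23 and -0.30, neither past 1.3-fold. The list medians, 0.22, 0.23 and 0.07 for the mimics in the same order, were all under 1.3-fold.

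**Figure D4:**
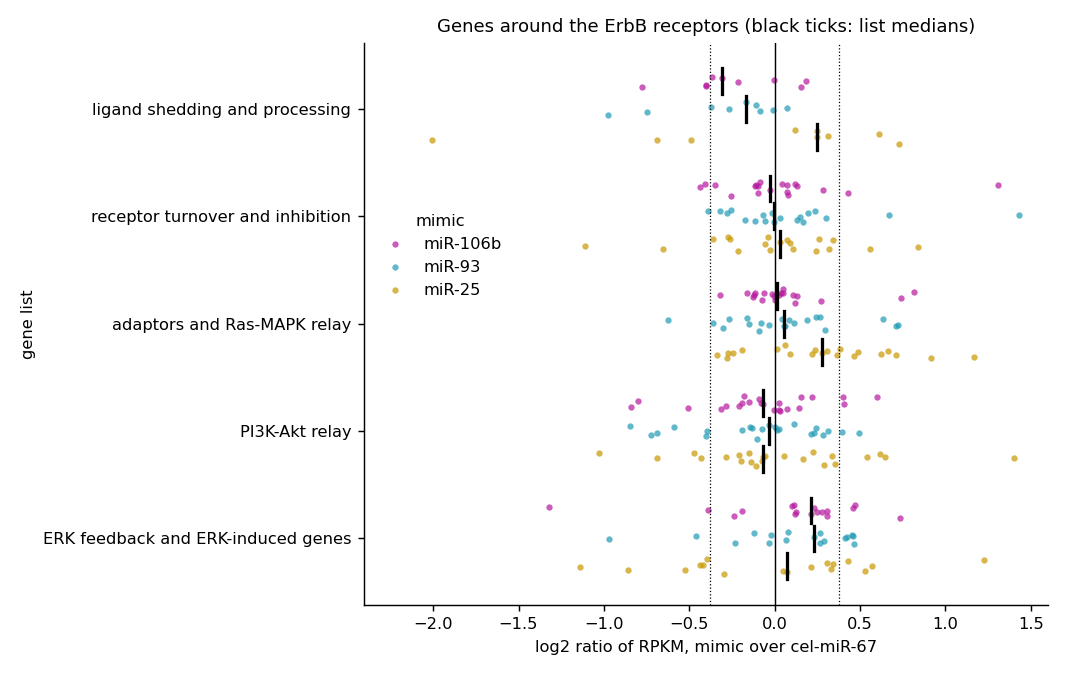
Log2 ratio of RPKM of each mimic over cel-miR-67 (horizontal axis) for the genes of 5 lists around the ErbB receptors (vertical axis), where a point is 1 gene above 1.0 RPKM in both libraries, a black tick is the list median and dotted lines mark 1.3-fold. List medians lie within 1.3-fold for every list and mimic, and the farthest points are Adam10 after miR-25 at -2.01 and Sh3kbp1 after miR-93 at 1.43.

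The genes whose 3 ratios to control were nearest to those of a member were sought among 4045 genes above 10 RPKM in all 4 libraries, by the Euclidean distance of the log2 ratios. For Hbegf they were Gadd45g at a distance of 0.52 and Tcap, a sarcomere gene, at 0.64. Gadd45g was at 79.1 RPKM in control and 17.2 RPKM after miR-93, and Tcap at 60.4 and 15.3 RPKM. Their log2 ratios after miR-25, -0.92 and -0.99, were less low than that of Hbegf, -1.34. Hbegf itself was at 5.80 RPKM after miR-93, under the 10 RPKM asked of the candidates, so genes at its level there were not among them. For Nrg1 they were Tmem176b at 0.15 and Parp1 at 0.20. The nearest genes of Egfr were Aamp and Usp34, those of Erbb2 Chchd3 and Cyb5a, those of Erbb4 Oaz1 and LOC100911034, and those of Errfi1 Rnf149 and Irf2bp2, at distances of 0.03 to 0.06. With 3 ratios from 4 libraries that share a control, such likeness is a description of these libraries.

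Markers of cardiomyocytes and of other cells that such cultures hold were read beside the members. Cardiomyocyte markers were all present, 11 of 11 above 1.0 RPKM in every library, with a summed level of 20697 RPKM in control, 18852 after miR-106b, 14144 after miR-93 and 12333 after miR-25. With miR-25 all 11 were lower past 1.3-fold (median log2 ratio -0.74), Tnni3, the gene of cardiac troponin I, farthest at -4.47, where 22.6% of all genes were lower. Fibroblast markers, 10 of 10 above 1.0 RPKM, summed to 366 RPKM after miR-25 and to 673 to 860 RPKM in the other libraries. Their median level did not follow the sum, at 24.4 RPKM after miR-25 and 20.5 RPKM in control. Of the 10, 1 was higher and 7 were lower after miR-25, beside 19.3% higher and 22.6% lower of all genes. Smooth muscle markers summed to 2079 RPKM after miR-25 and to 605 to 772 RPKM elsewhere, with 6 of 7 higher past 1.3-fold beside 19.3% of all genes. After miR-93, where Hbegf was lowest, 1 of 11 cardiomyocyte markers was higher and 4 were lower past 1.3-fold. Of 10 fibroblast markers none was higher and 5 were lower, and of 6 smooth muscle markers none and 3. These counts stand beside 15.1% higher and 15.6% lower of all genes. The fibroblast counts were the same after miR-106b, where 1 of 11 cardiomyocyte markers was higher and 3 were lower. Of 7 smooth muscle markers 1 was higher and 2 were lower after miR-106b, beside 11.9% higher and 12.7% lower of all genes. The part of cell makeup in the level of Hbegf was not tested. The miR-25 library, in which Errfi1 was highest, thus differed in marker levels too, and the part of cell makeup in the level of Errfi1 was not tested.

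Endothelial markers, of interest for Nrg1, had 4 of 9 genes above 1.0 RPKM in each library and summed to 15.0 RPKM in control, 14.5 after miR-106b, 19.2 after miR-93 and 10.1 after miR-25. Cldn5 was listed at 0 in control and after miR-106b. The highest sum, after miR-93, was carried by Npr3, a gene of endocardial cells, at 12.3 RPKM against 6.39 RPKM in control. Without Npr3, left out after its values were seen, the sum of the other 8 genes was 8.56 RPKM in control, 6.49 after miR-106b, 6.85 after miR-93 and 5.80 after miR-25. Of the 4 genes above the cutoff after miR-93, Kdr and Npr3 were higher and Egfl7 was lower. Whether endothelial cells took part in the level of Nrg1 was not tested. Macrophage markers summed to between 7.79 RPKM after miR-25 and 17.7 RPKM after miR-93. Epicardial markers summed to between 35.0 RPKM in control and 50.5 RPKM after miR-25. Schwann cell markers, which bear on Erbb3, summed over 5 genes to between 1.79 RPKM after miR-25 and 3.04 RPKM after miR-93. Erbb3 was at 0.210 and 0.117 RPKM in these 2 libraries, and the part of Schwann cells in its level was not tested.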

How the data were processed

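Total RNA of 4 cultures was sequenced on an Illumina instrument from TruSeq libraries. The methods state that the authors ran FASTQC on the reads, trimmed them with Cutadapt, mapped them to the Rnor 6.0 rat genome using STAR (2.7 in the submitters' processing notes), rounded gene counts and converted them with the rpkm function of edgeR. The counting program is not given in the sources used here. The deposited RPKM values, reads scaled to gene length and library size, cover 15731 genes, and the 4 tables of single samples hold the values of the series table. Length scaling lets genes be compared with each other, and library scaling makes each value depend on all other reads of its library.

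Whole reads were recovered from the RPKM steps, and rebuilt 100% of the values within a tolerance of 1e-09. A common factor of the reads and the gene length cancels in this check, so it does not settle each read number. Data were simulated with independent Poisson reads, every library from the rates of the control library and at its own size. A true difference between mimic and control was put into only a small part of the genes. In these data 96.35% of 15572 genes were recovered exactly. The intervals held the true ratio for 95.91% of 11399 genes simulated for miR-106b, 95.6% of 11412 for miR-93 and 95.61% of 11402 for miR-25. Such reads follow the model that the intervals assume, so this coverage does not test the intervals on real reads. The intervals cover counting error only and treat each read as independent. Reads without molecular identifiers are not independent molecules, so the intervals may be too narrow even for counting error. With 1 library per mimic no count model was fitted and no p-value was computed. The RPKM cutoff of 1.0 and the 1.3-fold cutoff follow the results text of the study, and the methods give an RPKM of 2.0, which was tried as an alternative beside other fold cutoffs, pseudocounts and scalings.

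The members and gene lists were chosen with earlier results of these data known. From each list the text names the genes at least 2-fold different in some comparison, at most 4, and otherwise the 2 with the largest ratio, and for each member above 1.0 RPKM in all libraries the 2 nearest genes above 10 RPKM. A result that this rule selects is not reported here. Marker genes were to be named from lists whose median passed 1.3-fold, and of these only Tnni3 is given by name with a ratio. A symbol was listed more than once for 176 names, and these were left out of lists. The files give no gene coordinates, so none are printed for the 8 genes. The miRNA sequences and positions are those of RefSeq for GRCr8, in which 3 of 3 miRNAs were matched. Ratios and intervals were computed with scipy 1.17.1 and numpy 2.4.6, tables read with pandas 2.3.3 and figures drawn with matplotlib 3.10.9, under Python 3.11.15.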

Additional observations from a re-analysis of the deposited data

How the results depend on the processing

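The number of members past 1.3-fold was 3 after miR-106b, 3 after miR-93 and 2 after miR-25. Over all genes above the cutoff, 24.6%, 30.8% and 42.0% were past 1.3-fold in the same order. At 2-fold the number of members was 0, 1 and 1, the remaining member being Hbegf. The shares over all genes there were 2.56%, 4.26% and 8.22%. With RPKM above 2.0 in both libraries the count with miR-106b was 1, again Hbegf, and Nrg1 was also lost with miR-93. The shares over all genes were then 22.5% with miR-106b and 28.6% with miR-93. Without an RPKM cutoff the count with miR-93 was 5 of 8, Erbb3 and Ereg being added as lower, beside 40.9% of all genes. The count was also 5, of 6, after rescaling RPKM to the reads on listed genes, Erbb4 and Errfi1 being added as higher. Under that scaling the share over all genes was 34.8%. As the shares rose too, these counts of 5 are no result about the 8 genes as a group. The other alternatives, a cutoff passed in either library, 1.5-fold, centring on the median gene, a pseudocount of 0.1 or 1 and counting only members whose interval left out 0, kept each count within 1.5 times, but not every call. Nrg1 with miR-106b was lost at 1.5-fold and with a pseudocount of 1 (0.33), Erbb2 with miR-93 was lost at 1.5-fold, and Ereg with miR-93 and miR-25 was added by a cutoff passed in either library. Of 96 values of single members under the pseudocounts and scalings, none that was past 1.3-fold changed direction, and 92 stayed within the counting interval of the reported value. The other 4 moved beyond it: with a pseudocount of 1, Hbegf, Nrg1 and Ereg with miR-93 (to -2.31, 0.65 and -0.78), and with scaling to listed genes Hbegf with miR-25 (to -1.19). Median ratios of lists moved by no more than the interquartile range of the list's genes in 60 of 64 cases. The other 4 concern Areg with miR-106b, a single gene with no such range, whose values (-0.81 to -0.57) stayed within its counting interval. No paired analysis was possible because there is 1 library per mimic, and for the same reason no replicate could be left out. Under 1.0 RPKM, as for Erbb3, Ereg and Areg, the depth leaves intervals wider than 1.3-fold. Such wide intervals also occur above 1.0 RPKM, as for Nrg1 with miR-106b (0.25 to 0.76).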
